A study of Mus musculus with 3 samples.

Results

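The elastic fibre and microfibril genes described here are *Eln*, *Fbn1*, *Mfap4*, *Mfap5*, *Emilin2*, and *Thsd4*, which were taken by gene symbol and make up 6 of the 1238 entries listed for the suprarenal aorta. RNA sequencing of the suprarenal aorta was available as 3 libraries, 1 for each cohort (Saline, AngII No AAA, and AngII AAA). Every animal was a male apoE null mouse on the C57BL/6 strain, was 12 weeks old at surgery, and carried an infusion pump. Mice without apolipoprotein E have high blood cholesterol and can form dissecting abdominal aortic aneurysms (AAAs) when angiotensin II (AngII), a hormone that raises blood pressure, is infused. AngII AAA tissue came from AngII-infused mice and was collected within 24 hours of the diagnosis of an aneurysm. AngII No AAA tissue came from AngII-infused mice in which no aneurysm was found by day 10, and Saline tissue came from saline-infused mice collected on day 10. The cohorts therefore differed in the time of collection as well as in the lesion, and these cannot be told apart. Each library was a pool of RNA from several mice, so the spread between animals could not be measured, no test was possible, and every difference below is a difference between 2 libraries with no replicate check.

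Elastic fibres let the aortic wall stretch and recoil with each heartbeat. They are built from a core of cross-linked elastin, encoded by *Eln*, laid down on a scaffold of fibrillin-1 microfibrils, encoded by *Fbn1*. Smooth muscle cells and fibroblasts secrete most of these proteins, elastin is made mainly early in life, and the loss of elastic fibres is a hallmark of aneurysm. *Mfap4* encodes a secreted glycoprotein that binds elastin and fibrillin-1, *Mfap5* encodes a small microfibril-associated glycoprotein, *Emilin2* encodes an elastin microfibril interfacer, and *Thsd4* encodes ADAMTSL6, an ADAMTS-like protein without protease activity that binds fibrillin-1 and promotes microfibril assembly.

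The files gave 1 entry per gene on mm9. *Eln* lay at chr5:135178465-135223124 and *Fbn1* at chr2:125126329-125332174. *Mfap4* lay at chr11:61298945-61302206 and *Mfap5* at chr6:122463693-122479305. *Emilin2* lay at chr17:71601515-71660305 and *Thsd4* at chr9:59814737-60358842. No other listed entry overlapped any of these spans. GENCODE M21 annotates all 6 as protein-coding genes, with *Mfap4* and *Mfap5* on the plus strand and the rest on the minus strand. Their principal transcripts range from 6 exons in *Mfap4* to 65 exons in *Fbn1*, and *Eln* has 37.

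Promoter sequence is shown for *Fbn1* and *Thsd4*, whose products act together in the microfibril and whose levels had opposite orders across the libraries. RefSeq windows of 250 bases before a transcription start were matched for 3 of the 6 genes (*Fbn1*, *Emilin2*, and *Thsd4*), with 1, 2, and 2 windows, respectively. The windows below end at the outermost start of each gene on GRCm38.p6 and are written 5′ to 3′ on the minus strand. The *Fbn1* window is chr2:125506439-125506688 and the *Thsd4* window is chr9:60511036-60511285. Capitals mark a GC box, GGGCGG on either strand.
Fbn1: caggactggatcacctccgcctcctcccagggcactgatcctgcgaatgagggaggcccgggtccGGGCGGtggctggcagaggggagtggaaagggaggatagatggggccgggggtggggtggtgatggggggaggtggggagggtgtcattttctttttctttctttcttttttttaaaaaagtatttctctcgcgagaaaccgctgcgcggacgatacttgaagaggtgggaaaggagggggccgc
Thsd4: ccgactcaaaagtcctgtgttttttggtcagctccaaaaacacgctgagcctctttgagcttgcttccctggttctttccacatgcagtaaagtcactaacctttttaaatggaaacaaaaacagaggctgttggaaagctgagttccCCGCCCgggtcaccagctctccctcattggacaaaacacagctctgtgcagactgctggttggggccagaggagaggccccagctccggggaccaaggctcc
Each of these windows held 1 GC box, and 32.7% of all 32851 mouse windows of this length held at least 1. The *Fbn1* window was 59.2% G and C and the *Thsd4* window 52.8%, against a median of 52.4% over all windows. Neither these windows nor the other 3 of these genes held the letters TATAAA (found in 12.4% of all windows), TGANTCA (6.75%), or the CArG box (1.47%), each searched on both strands.

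The listed values are FPKM, a measure of fragments corrected for transcript length and library size, so that levels can be set side by side between genes. Each table compares 2 libraries and holds only entries with an unadjusted p-value under 0.05 in the authors' comparison, so a gene absent from a table could not be read there. Of the 6 genes, 4 were listed for AngII AAA against AngII No AAA, 4 for AngII AAA against Saline, and 3 for AngII No AAA against Saline, and none was listed for all 3 comparisons. Still, 5 of the 6 were listed in 2 tables and so had a value in every library. *Eln* was listed in 1 table, and its level in the Saline library is not analysed here. Levels in the next paragraphs are on the scale of AngII AAA against Saline, to which the other tables were brought by a constant factor.

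*Eln* had the highest level of the 6 genes in both libraries for which it was listed. Its level was 1182 FPKM in AngII No AAA and 250 FPKM in AngII AAA, a 4.73-fold lower level with the aneurysm. Among the 600 entries of that comparison it held rank 2 by level in AngII No AAA and rank 25 in AngII AAA. The AngII AAA library thus had less elastin mRNA as a share of its fragments, and in bulk tissue fewer cells of a type and less RNA per cell cannot be told apart.

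*Fbn1* was lower in the Saline library than in both AngII libraries, with the difference from AngII AAA near the median of all listed entries. Its level was 20.6 FPKM in Saline, 78.3 FPKM in AngII No AAA, and 92.6 FPKM in AngII AAA. The 2 AngII libraries differed by 1.18-fold, a difference that the authors' table of that comparison does not list. *Fbn1* was 3.80-fold higher in AngII No AAA than in Saline and 4.49-fold higher in AngII AAA than in Saline, although the latter log2 ratio of 2.17 was −0.10 relative to the median of all entries listed for that comparison. The scaffold gene and the core gene therefore had different patterns between the AngII libraries, with *Eln* 4.73-fold lower and *Fbn1* 1.18-fold higher in AngII AAA.

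*Mfap4* was highest in the AngII No AAA library and of like level in the other two. It stood at 158 FPKM in Saline, 492 FPKM in AngII No AAA, and 107 FPKM in AngII AAA. The AngII AAA library was 4.60-fold below AngII No AAA, close to the 4.73-fold of *Eln*. The 1.47-fold difference between AngII AAA and Saline was not listed, so the order of these 2 libraries rests on a difference that the authors' filter did not keep.

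*Mfap5* resembled *Fbn1*. Its level was 15.2 FPKM in Saline, 67.9 FPKM in AngII No AAA, and 55.1 FPKM in AngII AAA. It was 4.47-fold higher in AngII No AAA than in Saline and 3.63-fold higher in AngII AAA than in Saline, although the latter log2 ratio of 1.86 was −0.40 relative to the median of the listed entries. The 1.23-fold difference between the AngII libraries was not listed. The microfibril-associated genes *Mfap4* and *Mfap5* were thus both higher in AngII No AAA than in Saline, and differed in AngII AAA. There *Mfap4* was near its Saline level, at a 1.47-fold difference that was not listed. *Mfap5* was 3.63-fold above its Saline level, a ratio below the median of the listed entries.

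*Emilin2* was the one gene of the 6 listed as higher in AngII AAA than in both other libraries. It stood at 7.60 FPKM in Saline, 14.6 FPKM in AngII No AAA, and 59.6 FPKM in AngII AAA. The AngII AAA library was 4.09-fold above AngII No AAA and 7.84-fold above Saline, the widest range of the 5 genes with 3 values. The 1.92-fold difference between AngII No AAA and Saline was not listed.

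*Thsd4* had the opposite order. It stood at 34.5 FPKM in Saline, 20.7 FPKM in AngII No AAA, and 7.55 FPKM in AngII AAA. The AngII AAA library was 2.74-fold below AngII No AAA and 4.57-fold below Saline, and the 1.66-fold difference between AngII No AAA and Saline was not listed. Because *Fbn1* and *Thsd4* had opposite orders, the level of *Fbn1* was 0.598 times that of *Thsd4* in the Saline library, 3.79 times in AngII No AAA, and 12.3 times in AngII AAA.

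**Figure D1:**
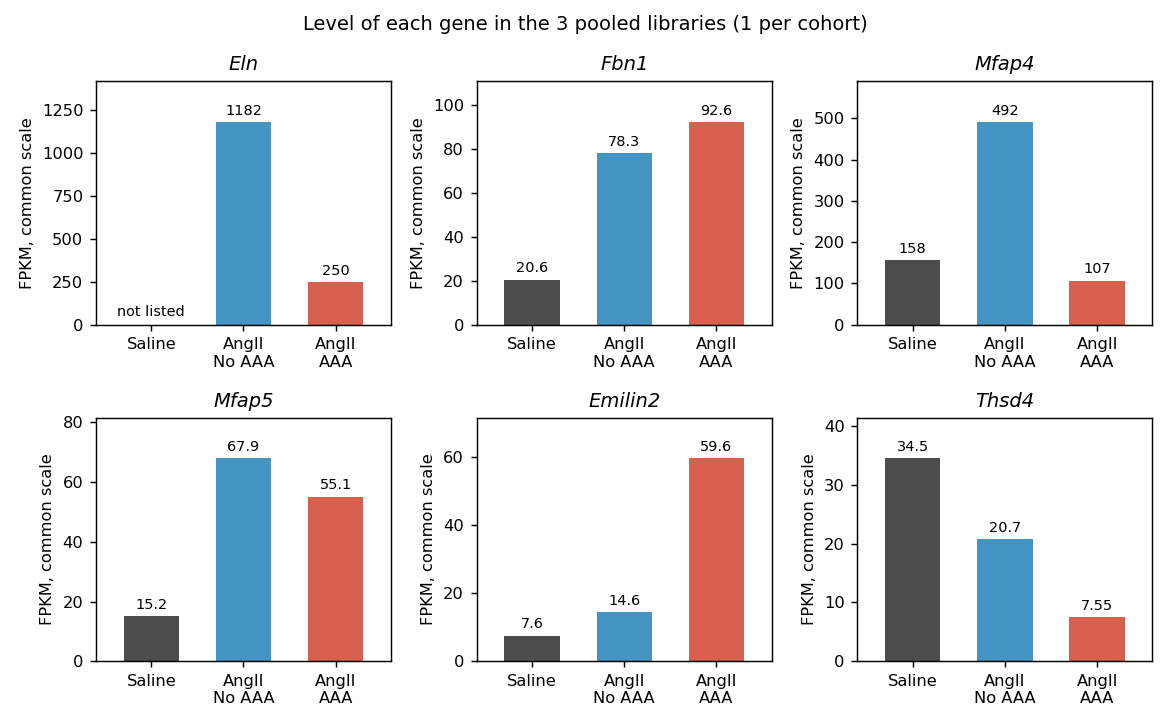
FPKM of each gene in the Saline, AngII No AAA, and AngII AAA libraries, on the scale of AngII AAA against Saline. Each bar is 1 pooled library with no error bar, each panel has its own axis from 0, and no Saline value of *Eln* is listed. *Eln* was higher in AngII No AAA than in AngII AAA (1182 against 250 FPKM), *Mfap4* was highest in AngII No AAA (492 FPKM), *Emilin2* was highest in AngII AAA (59.6 FPKM), and *Thsd4* was highest in Saline (34.5 FPKM).

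The comparison of AngII AAA with AngII No AAA asks what sets an aneurysm apart from AngII infusion alone. *Eln*, *Mfap4*, and *Thsd4* were lower in AngII AAA and *Emilin2* was higher. *Eln* went from 1144 to 242 FPKM as deposited (log2 ratio −2.24), *Mfap4* from 476 to 104 FPKM (−2.20), *Thsd4* from 20.0 to 7.30 FPKM (−1.46), and *Emilin2* from 14.1 to 57.7 FPKM (2.03). *Eln* and *Mfap4* passed 4-fold lower, as did 6.33% of all 600 listed entries, and *Emilin2* passed 4-fold higher, as did 31.5%. With a pseudocount of 1 FPKM, *Emilin2* no longer passed (log2 ratio 1.96). Most entries in this table were higher in AngII AAA (79%), with a median log2 ratio of 1.63. Relative to that median, the log2 ratios were −3.87 for *Eln*, −3.83 for *Mfap4*, −3.08 for *Thsd4*, and 0.41 for *Emilin2*, so no direction changed, but *Thsd4* then passed 4-fold and *Emilin2* did not. When every ratio was divided by the median, 5.33% of entries were at least 4-fold higher and 21% at least 4-fold lower. The latter are all entries listed as lower, since no listed entry differed by less than 2.30-fold. That *Thsd4* passed after this division was therefore fixed beforehand. Among the 126 entries that were lower, *Eln* and *Mfap4* were 28th and 29th and *Thsd4* 97th by size.

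The comparison of AngII AAA with Saline covers the infusion and the lesion together. *Emilin2* was higher in AngII AAA (log2 ratio 2.97, or 0.71 above the median of the listed entries) and *Thsd4* was lower (−2.19, or −4.46 relative to the median). *Fbn1* (2.17) and *Mfap5* (1.86) were higher as deposited and lower relative to the median (−0.10 and −0.40). *Emilin2* and *Fbn1* passed 4-fold higher, as did 63.1% of all 715 listed entries, and *Thsd4* passed 4-fold lower, as did 9.23%. Of the listed entries, 84.6% were higher in AngII AAA, with a median log2 ratio of 2.26, and no listed entry differed by less than 2.93-fold. After division by the median ratio, 8.25% of entries were at least 4-fold higher and 15.4% at least 4-fold lower. The latter are all entries listed as lower, which must pass after this division. The counts for *Fbn1* and *Emilin2* are near the share of all listed entries. *Fbn1* ranked 392nd and *Mfap5* 505th of the 605 entries that were higher.

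The comparison of AngII No AAA with Saline covers the infusion without a lesion. All 3 listed genes were higher in AngII No AAA and stayed above the median of the listed entries. As deposited, *Mfap5* went from 16.6 to 74.2 FPKM (log2 ratio 2.16), *Fbn1* from 22.5 to 85.6 FPKM (1.93), and *Mfap4* from 172 to 521 FPKM (1.60). *Mfap4* held rank 8 by level in Saline and rank 7 in AngII No AAA among the 564 entries. Only *Mfap5* of the 3 passed 4-fold higher, as did 11.9% of the listed entries, and none was at least 4-fold lower, as were 4.26%. Of the listed entries, 63.5% were higher in AngII No AAA, with a median log2 ratio of 1.16. The log2 ratios relative to that median were 1.00 for *Mfap5*, 0.77 for *Fbn1*, and 0.43 for *Mfap4*. After division by the median ratio, 3.01% of entries were at least 4-fold higher and 36.5% at least 4-fold lower. The latter are again all entries listed as lower, which must pass after this division. Any pair of these comparisons shares a library, so they are not independent of each other.

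**Figure D2:**
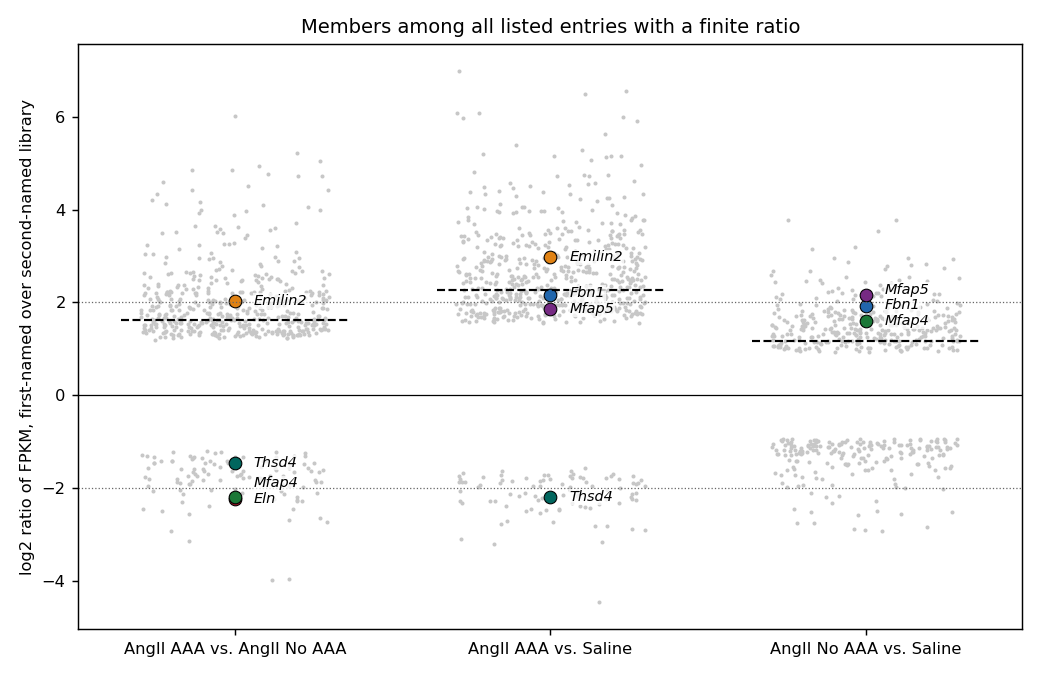
log2 ratio of FPKM of the first-named over the second-named library for every listed entry with a finite ratio (grey points, spread sideways for visibility) and for the elastic fibre and microfibril genes (coloured points) in each comparison. Dashed lines are the median of the listed entries (1.63, 2.26, and 1.16) and dotted lines mark 4-fold. *Eln*, *Mfap4*, and *Thsd4* lie below 0 in AngII AAA against AngII No AAA, while *Fbn1* and *Mfap5* lie above 0 but below the median in AngII AAA against Saline.

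Across the 3 libraries, the genes fell into 4 orders. *Fbn1* and *Emilin2* had Saline lowest and AngII AAA highest, the order of 420 of the 544 listed entries with a value above 0 in every library (77.2%), although *Fbn1* was below the median ratio for AngII AAA against Saline. *Thsd4* had the reverse order, which 57 entries had (10.5%). *Mfap4* had AngII AAA lowest and AngII No AAA highest, the order of 12 entries (2.21%). *Mfap5* had Saline lowest and AngII No AAA highest, the order of 11 entries (2.02%). For *Fbn1* and *Mfap5* the step between the AngII libraries was 1.18-fold and 1.23-fold and was not listed, so their separate orders rest on a small difference without a replicate check. The other orders also hold a step that was not listed. It was 1.47-fold between AngII AAA and Saline for *Mfap4*. Between AngII No AAA and Saline it was 1.66-fold for *Thsd4* and 1.92-fold for *Emilin2*.

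Likeness of profiles was measured as the Euclidean distance between log2 levels centred on their mean over the 3 libraries. *Fbn1* and *Mfap5* were the closest pair of the 5 genes, at 0.38, and *Emilin2* and *Thsd4* the farthest, at 3.72. *Mfap4* was 1.72 from *Thsd4*, the nearest of the other members. Over 527 listed genes, the profile closest to *Mfap4* was that of the fibroblast gene *Pi16* (63.8, 183, and 48.5 FPKM in Saline, AngII No AAA, and AngII AAA), at a distance of 0.20, followed by *Adamtsl2* at 0.30 and *Art4* at 0.44. The profile closest to *Thsd4* was that of *Itga8*, the integrin alpha 8 chain of smooth muscle (149, 86.1, and 32.2 FPKM), at 0.04, followed by *Igsf9* at 0.14 and *Adcy5* at 0.15. The profile closest to *Emilin2* was that of *F13a1*, the A chain of coagulation factor XIII (10.5, 20.4, and 85.4 FPKM), at 0.04, followed by the leukocyte gene *Laptm5* and by *Neurl3*, both also at 0.04. *Fbn1* was closest to *Itih4* at 0.07, *C1qtnf6* at 0.12, and the collagen gene *Col8a1* at 0.16. *Mfap5* was closest to *Cpxm1* at 0.21, and *Cd302* was at 0.26. With 3 points per profile, these distances describe the libraries and carry no test.

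**Figure D3:**
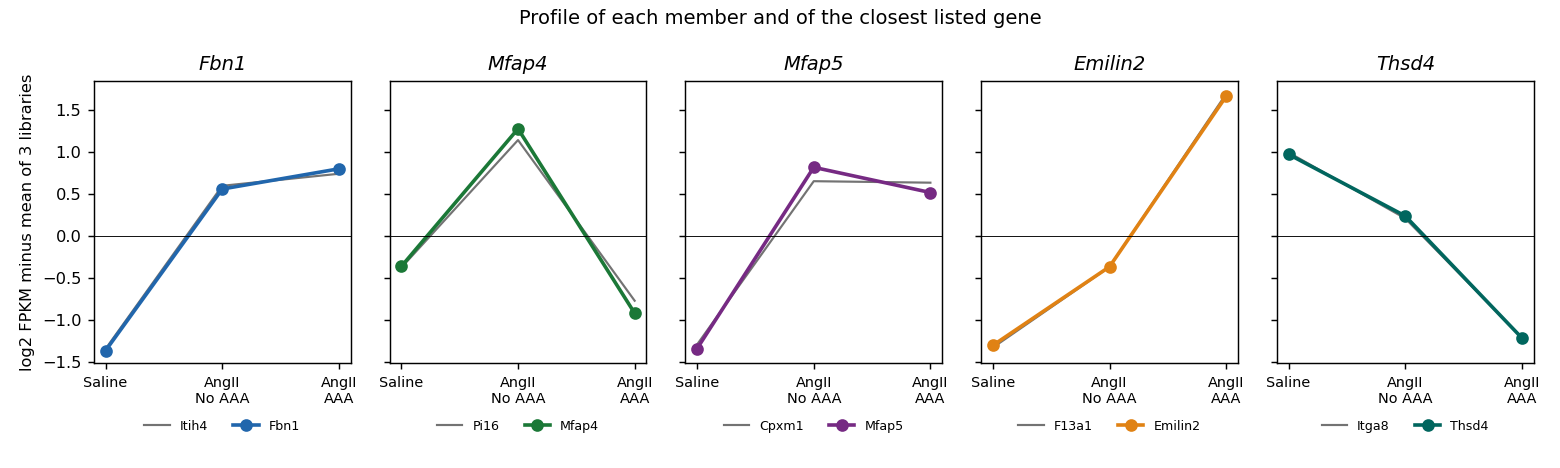
log2 FPKM minus its mean over the 3 libraries, for each gene with a value in every library (coloured) and the listed gene with the closest profile (grey line), with 1 pooled library per point. *Mfap4* peaks in AngII No AAA, whereas *Emilin2* is highest in AngII AAA and *Thsd4* in Saline; *Fbn1* and *Mfap5* differ little between the AngII libraries (1.18-fold and 1.23-fold).

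The 6 genes were then set among 78 genes for the building, cross-linking, and breakdown of elastic fibres. Of these, 30 were listed in at least 1 table. For AngII AAA against AngII No AAA, 13 were listed, 5 higher and 8 lower in AngII AAA, with a median log2 ratio of −1.46 against 1.63 over all entries. For AngII AAA against Saline, 20 were listed, 15 higher and 5 lower, with a median of 2.08 against 2.26. For AngII No AAA against Saline, all 16 that were listed were higher, with a median of 1.50 against 1.16. Over all entries, 79%, 84.6%, and 63.5% were higher in these 3 comparisons, respectively. Without the 6 genes themselves, the medians were −1.32, 2.19, and 1.39. The first of these is over 9 genes, 4 higher and 5 lower in AngII AAA, with log2 ratios from −2.69 to 3.97. No listed entry of that comparison differed by less than 2.30-fold. The sign of that median therefore rests on a nearly even split. For the other comparisons, 12 were higher and 4 lower, and 13 were higher and 0 lower.

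Of the structural genes, 6 of 10 were listed in no table, among them *Fbn2* and *Mfap2*. Of the EMILIN and multimerin family, *Mmrn1*, a protein of platelets and endothelium, was listed beside *Emilin2*, at 9.33 FPKM in Saline and 27.8 FPKM in AngII AAA (log2 ratio 1.58, below the median of 2.26). *Emilin1* was not listed.

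Among the fibulins, which link elastin to microfibrils and cells, the listed genes did not move one way. *Fbln5*, needed for elastic fibre assembly, was at 52.5 FPKM in AngII No AAA and 17.3 FPKM in AngII AAA (−1.60), and *Fbln1* was at 65.2 and 26.1 FPKM (−1.32). Relative to Saline, *Fbln2* was higher in AngII AAA (30.4 to 120 FPKM, 1.99, below the median of 2.26) and *Fbln7* was lower (10.5 to 2.20 FPKM, −2.25). *Fbln5* and *Fbln1* thus shared the direction of *Eln* and *Mfap4* in that comparison, at smaller ratios.

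The lysyl oxidases, which cross-link elastin and collagen, were lowest in Saline and highest in AngII AAA. *Lox* was at 16.4 FPKM in Saline, 110 FPKM in AngII No AAA, and 193 FPKM in AngII AAA, and *Loxl2* at 8.94, 42.9, and 60.8 FPKM. Both were listed as higher in AngII AAA than in Saline (3.56 and 2.77) and in AngII No AAA than in Saline (2.74 and 2.26), above the medians of 2.26 and 1.16. The steps between the AngII libraries (1.77-fold and 1.42-fold) were not listed. *Loxl1*, *Loxl3*, and *Loxl4* were not listed.

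Of 11 ADAMTS-like and related ADAMTS genes, the group of *Thsd4*, 4 were listed in any comparison. For AngII AAA against AngII No AAA, 3 were listed, and against Saline 2, with *Thsd4* counted in both. All of these were lower in AngII AAA, as were 21% and 15.4% of all listed entries. *Adamtsl5* was at 20.0 FPKM in Saline, 19.4 FPKM in AngII No AAA, and 6.46 FPKM in AngII AAA, with log2 ratios of −1.58 and −1.63 for AngII AAA against each. *Adamtsl2*, whose product binds fibrillin-1, was at 2.83, 6.60, and 1.62 FPKM (−2.03 against AngII No AAA), a profile close to that of *Mfap4*. *Adamtsl1* was listed for AngII No AAA against Saline alone, at 3.72 FPKM in Saline and 8.44 FPKM in AngII No AAA as deposited (1.18).

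Microfibrils also store transforming growth factor beta through latent binding proteins. *Tgfb1* was at 22.7 FPKM in Saline, 31.5 FPKM in AngII No AAA, and 78.0 FPKM in AngII AAA (1.31 against AngII No AAA and 1.78 against Saline, both below the medians of 1.63 and 2.26). *Tgfb2* (0.96) and *Ltbp2* (1.14) were listed as higher in AngII No AAA than in Saline, both below the median of 1.16. *Vcan*, encoding versican, a proteoglycan that binds microfibrils, was listed in all 3 tables, at 6.96, 17.9, and 53.5 FPKM. Its log2 ratios were 1.58 for AngII AAA against AngII No AAA (below the median of 1.63), 2.94 for AngII AAA against Saline, and 1.32 for AngII No AAA against Saline.

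The listed proteases of the elastin-degrading group (2, 4, and 5 of 12 in the 3 comparisons) were all higher in the first-named library, as were 79%, 84.6%, and 63.5% of all listed entries. *Mmp9*, a gelatinase that also cleaves elastin, was at 3.99 FPKM in Saline, 4.85 FPKM in AngII No AAA, and 76.1 FPKM in AngII AAA. *Ctss*, encoding the elastolytic cathepsin S, was at 11.6, 39.1, and 190 FPKM. *Mmp14* (95.1 FPKM in AngII AAA against 18.0 in Saline) and *Ctsl* (150 against 39.2, a log2 ratio of 1.93 below the median of 2.26) were also listed as higher in AngII AAA than in Saline, and *Mmp2* (1.39) and *Ctsk* (1.40) were listed for AngII No AAA against Saline. *Mmp12*, the macrophage elastase, and *Elane*, the neutrophil elastase, were not listed.

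Of 13 protease inhibitors, *Timp1* had the largest ratio of the pathway list, at 6.52 FPKM in Saline and 325 FPKM in AngII AAA (log2 ratio 5.64). *Serpina3n* was at 58.2 FPKM in Saline, 450 FPKM in AngII No AAA, and 614 FPKM in AngII AAA. *Serpina1d* was lower in AngII AAA than in AngII No AAA (−2.69) and Saline (−2.82), and *Serpina1e* was lower than in Saline (−2.06). These last are uncertain, because the *Serpina1* genes are near-identical copies among which reads could be split.

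**Figure D4:**
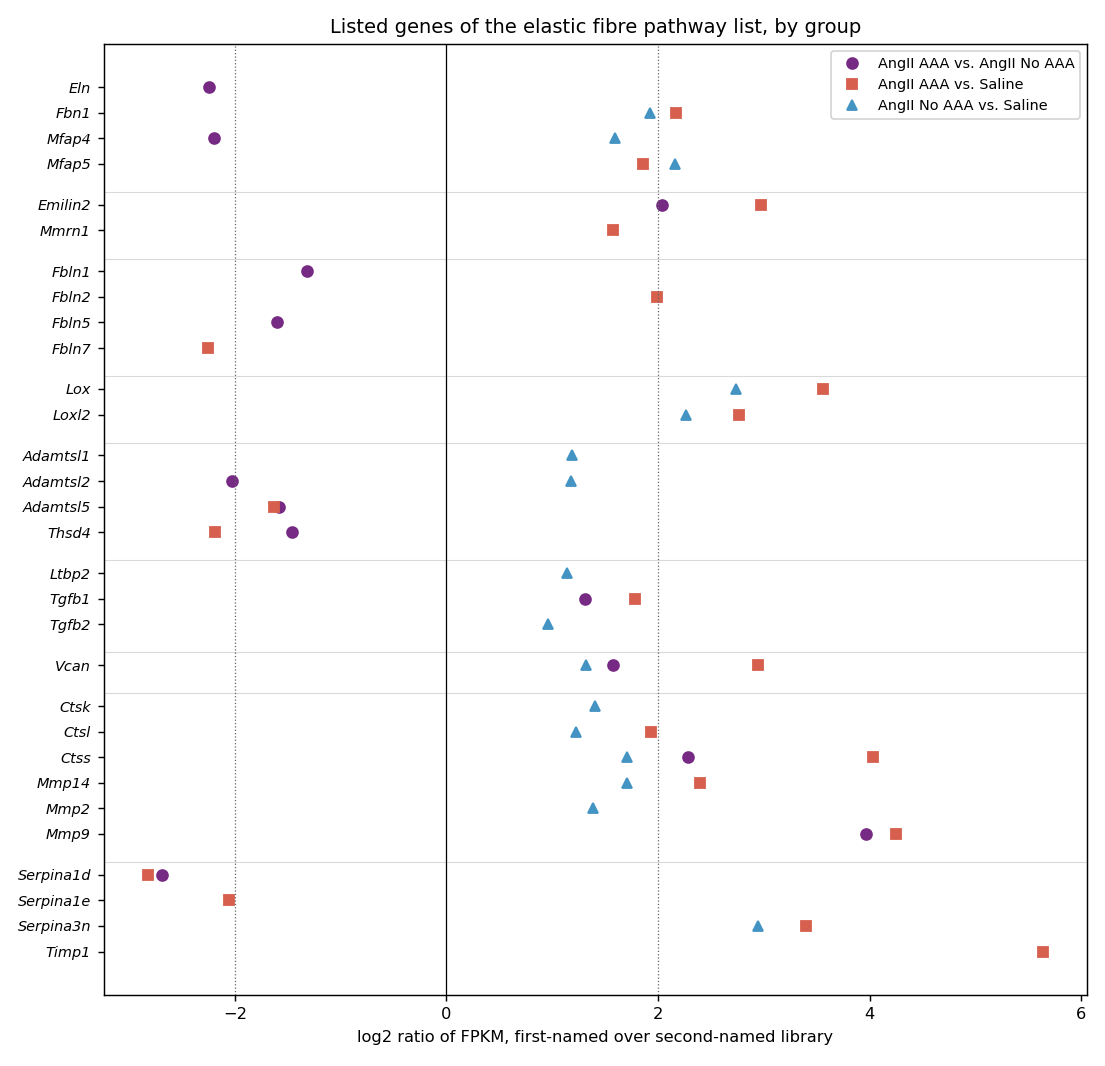
log2 ratio of FPKM of the first-named over the second-named library for the 30 listed genes of the elastic fibre pathway list, 1 row per gene and 1 symbol per comparison, grouped by role and with dotted lines at 4-fold. *Eln*, *Mfap4*, *Fbln5*, and *Fbln1* lie left of 0 for AngII AAA against AngII No AAA, and *Lox*, *Loxl2*, *Mmp9*, *Ctss*, and *Timp1* lie right of 0 in each comparison that lists them; of the ratios right of 0 for AngII AAA against Saline, those of *Fbn1*, *Mfap5*, *Mmrn1*, *Fbln2*, *Tgfb1*, and *Ctsl* are below the median of all listed entries (2.26).

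Markers of cell and tissue types differed between the same libraries. The counts of markers below stand beside 79% of all listed entries higher in AngII AAA than in AngII No AAA. The shares were 84.6% for AngII AAA against Saline and 63.5% for AngII No AAA against Saline. Of 18 smooth muscle markers, 9 were listed for AngII AAA against AngII No AAA, all lower in AngII AAA, with a summed level of 807 FPKM against 2692 FPKM and a median log2 ratio of −1.74. *Acta2*, the smooth muscle actin, was at 956 FPKM in AngII No AAA and 314 FPKM in AngII AAA, and *Tagln* was at 934 and 280 FPKM. The log2 ratios of *Eln* (−2.24) and *Mfap4* (−2.20) were lower than those of 8 of these 9 markers and higher than that of *Cnn1* (−2.26), and that of *Thsd4* (−1.46) was higher than those of 8 of the 9. Relative to Saline, 3 smooth muscle markers were listed, with a median of −2.32 beside −2.19 for *Thsd4*. No smooth muscle marker was listed for AngII No AAA against Saline. The part of the smooth muscle markers in the levels of *Eln*, *Mfap4*, and *Thsd4* was not tested.

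Fibroblast markers were higher in AngII No AAA than in Saline for the 8 of 15 that were listed, summing to 1579 FPKM against 436 FPKM, with ratios from 1.00, below the median of 1.16 over all entries, to 3.53 on the log2 scale and a median of 1.46, beside 2.16 for *Mfap5*, 1.93 for *Fbn1*, and 1.60 for *Mfap4*. Of the 8, 6 had a lower ratio than each of these 3 genes. In AngII AAA, 3 fibroblast markers (*Pi16*, *Clec3b*, and *Sfrp4*) were lower than in AngII No AAA, at 157 FPKM against 564 FPKM in sum. *Sfrp4* and *Col3a1* were higher in AngII AAA than in Saline, at 807 FPKM against 118 FPKM in sum, with log2 ratios of 1.85 (below the median of 2.26) and 2.94. Their part in these results was not tested.

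Macrophage markers were higher in AngII AAA, 12 of 15 against AngII No AAA (1832 FPKM against 328 FPKM in sum, median 2.18, lowest 1.29) and 13 of 15 against Saline (1976 FPKM against 149 FPKM, median 3.44, lowest 2.07). These lowest ratios are below the medians over all entries (1.63 and 2.26), of which 79% and 84.6% were higher in AngII AAA. The log2 ratio of *Emilin2* against AngII No AAA, 2.03, lay above those of 5 of the 12 markers and below those of 7. It lay below those of all 6 listed platelet markers. Against Saline, its ratio of 2.97 lay above those of 4 of 13 macrophage markers and 3 of 5 platelet markers. *Cd68* was at 18.0 FPKM in Saline, 59.2 FPKM in AngII No AAA, and 279 FPKM in AngII AAA, and *Lyz2* was at 66.9, 161, and 1109 FPKM. For AngII No AAA against Saline, 9 of 15 macrophage markers were listed, all higher (356 FPKM against 137 FPKM, median 1.43). Platelet markers were also higher in AngII AAA than in AngII No AAA, 6 of 10 (1274 FPKM against 79.8 FPKM), as were 8 of 12 neutrophil markers (1301 FPKM against 101 FPKM), of which *Lcn2* had the lowest log2 ratio (1.57, below the median of 1.63). *Stfa2l1*, a neutrophil marker, was listed at 0 in AngII No AAA and Saline. The part of these cells in the level of *Emilin2* was not tested.

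Markers of tissues other than the vessel wall also differed between the libraries. Adrenal cortex markers were higher in AngII AAA than in AngII No AAA for 8 of 10 (500 FPKM against 21.4 FPKM in sum) and than in Saline for 7 of 10 (464 FPKM against 14.8 FPKM, with a lowest log2 ratio of 2.21, below the median of 2.26). Skeletal muscle markers were highest in Saline, with 12 of 15 lower in AngII No AAA (225 FPKM against 1130 FPKM) and 6 of 15 lower in AngII AAA (83.5 FPKM against 384 FPKM). Of 10 endothelial markers, *Emcn* alone was listed, at 14.1 FPKM in Saline and 43.6 FPKM in AngII AAA (log2 ratio 1.63, below the median of 2.26), and of 10 adipocyte markers *Retn* alone, with a log2 ratio of 1.98 for AngII No AAA against Saline. The part of these tissues in the levels of the elastic fibre genes was not tested.

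**Figure D5:**
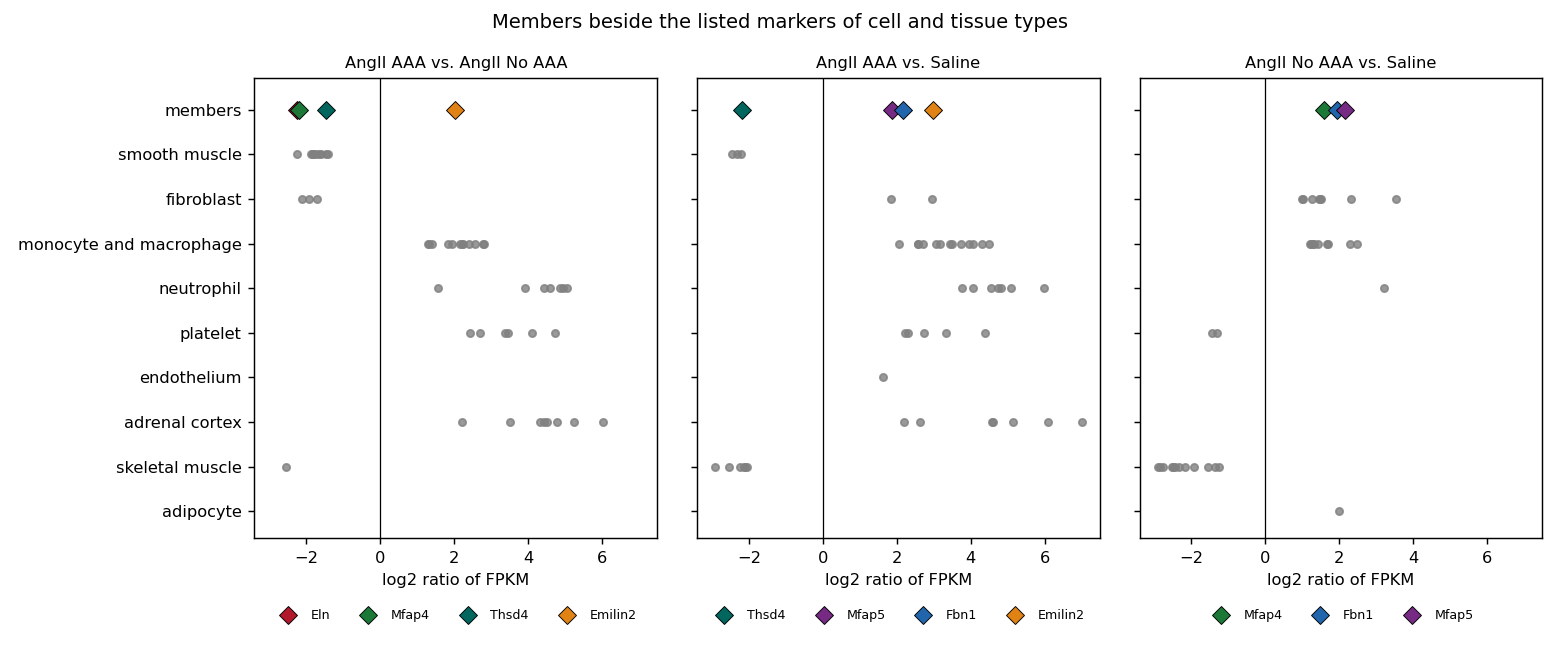
log2 ratio of FPKM of the first-named over the second-named library in each comparison, for the elastic fibre and microfibril genes (diamonds, top row) and for the listed markers of 9 cell and tissue types (grey points, 1 per marker with a finite ratio; *Eln* lies partly behind *Mfap4*). In AngII AAA against AngII No AAA, *Eln*, *Mfap4*, and *Thsd4* lie on the same side of 0 as all 9 smooth muscle and 3 fibroblast markers. *Emilin2* lies on the side of all 12 macrophage markers. All listed neutrophil, platelet, and adrenal cortex markers lie on that side too, as do 79% of all listed entries.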

How the data were processed

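RNA from the suprarenal aorta was pooled in equal amounts per cohort, made into 3 libraries with a low-input kit, and sequenced as single reads to between 35000000 and 43000000 reads per library per the series' design text (the study's methods give a slightly lower range). The submitters' processing notes name FastQC, HISAT2, Cufflinks, Cuffdiff, and mm9, and their versions are not given in the sources used here. The authors deposited FPKM values of 2 libraries per table, scaled within each Cuffdiff run and kept for an unadjusted p-value under 0.05. The deposited fold changes, test scores, p-values, and adjusted p-values were not used. The depth behind single values is unknown from FPKM, so no interval was given.

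From the FPKM values, log2 ratios were computed with no pseudocount, and a ratio of 4-fold or more was counted in each direction. A library's values differed between tables by a constant, which was 0.968 for AngII AAA (385 shared entries), 1.09 for Saline (227), and 0.914 for AngII No AAA (102). It was divided out to reach the scale of AngII AAA against Saline. Because the constants do not close exactly, a log2 ratio of AngII No AAA against Saline on this scale can differ by 0.05 from that deposited. Profiles were compared among entries naming 1 gene, at 1 FPKM or more in every library.

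Named genes were the 6 genes, all other listed genes of the pathway list, the 3 closest profiles per gene (1 of which is not reported here), and the leading markers of each list. Further markers (*Cnn1*, *Clec3b*, *Lcn2*, *Stfa2l1*) and genes stated as not listed were named after the values were seen. The genes and lists were chosen with earlier results of these data known, and the promoter motifs and ratios between genes within a library were chosen after the values were seen. Promoters came from RefSeq (GRCm38.p6), and strand and exons from GENCODE M21. Alternatives were a pseudocount of 1 FPKM, a 3-fold threshold, a minimum of 1 FPKM, entries naming 1 gene, division by the median ratio, other scalings, and a shorter list. The calculation was tested on 1000 simulated entries for AngII AAA against Saline, 200 of them changed, and recovered 200. These entries held no noise and passed no p-value filter. The test therefore checks the arithmetic alone and does not measure how well a change would be found. Python 3.11.15, pandas 2.3.3, numpy 2.4.6, and matplotlib 3.10.9 were used.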

Additional observations from a re-analysis of the deposited data

How the results depend on the processing

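Of 151 values recomputed under an alternative, 123 moved by at most 1.5 times, 26 moved by more, and 2 changed sign. Many of the 123 could not move. A 3-fold threshold, a minimum of 1 FPKM, and entries naming 1 gene leave each gene's log2 ratio unchanged. Division by the median ratio of the listed entries shifts every ratio. Under it, 17 values moved by more, 2 changed sign, and 1 did neither. The 2 were *Fbn1* (−0.10) and *Mfap5* (−0.40) in AngII AAA against Saline. That median is over entries kept by a p-value filter, 84.6% of them higher in AngII AAA, so it does not mark an unchanged level. Both genes were 3.63-fold or more higher in AngII AAA as deposited. After division by the median, 1 gene in place of 3 passed 4-fold for AngII AAA against Saline, and 0 in place of 1 for AngII No AAA against Saline. The 1 gene was *Thsd4*, and every entry listed as lower must pass after this division. With a 3-fold threshold, 3 genes passed for AngII No AAA against Saline, and the share of all listed entries past the threshold became 52.2% higher and 13.5% lower for AngII AAA against AngII No AAA, 15.2% lower for AngII AAA against Saline, and 26.1% higher and 8.51% lower for AngII No AAA against Saline. A pseudocount of 1 FPKM left 2 genes in place of 3 past 4-fold for AngII AAA against AngII No AAA, since *Emilin2* (1.96) no longer passed, and lowered the share at least 4-fold lower to 3.5% for AngII AAA against AngII No AAA and to 6.01% for AngII AAA against Saline. The pathway list gave 25 ratios of 4-fold or more over the 3 comparisons and 14 without its proteases and inhibitors, since fewer genes were counted. For AngII AAA against AngII No AAA, 3 of 13 were higher and 4 lower (31.5% and 6.33% of all entries). For AngII AAA against Saline, 10 of 20 were higher and 4 lower (63.1% and 9.23%). For AngII No AAA against Saline, 4 of 16 were higher and 0 lower (11.9% and 4.26%). The order of the libraries for the 5 genes with 3 values was the same with values as deposited, with the pseudocount, and with the AngII No AAA level taken from its comparison with Saline. No paired analysis was possible because each cohort had 1 library, and the depth behind a single FPKM value was not known.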

Other observations

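Ratios between 2 genes within 1 library are given here as values. In AngII No AAA a ratio can join levels from 2 comparisons, whose scaling constants do not close exactly. Such a ratio can shift by 0.05 on the log2 scale with the scaling used. The level of *Eln* was 15.1 times that of *Fbn1* in AngII No AAA and 2.70 times in AngII AAA. For *Mfap4* over *Fbn1* the ratio was 7.65 in Saline, 6.28 in AngII No AAA, and 1.16 in AngII AAA, and for *Mfap4* over *Mfap5* it was 10.4, 7.24, and 1.94. *Eln* over *Mfap4* was 2.40 in AngII No AAA and 2.34 in AngII AAA, so these genes kept nearly the same proportion while each was over 4-fold lower. *Lox* over *Eln*, the cross-linking enzyme against its substrate, was 0.0926 in AngII No AAA and 0.774 in AngII AAA, and *Lox* over *Fbn1* was 0.797 in Saline, 1.40 in AngII No AAA, and 2.09 in AngII AAA.

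Against cell type markers, *Eln* over *Acta2* was 1.24 in AngII No AAA and 0.796 in AngII AAA. *Thsd4* over *Itga8* was 0.232 in Saline, 0.240 in AngII No AAA, and 0.235 in AngII AAA, and *Mfap4* over the fibroblast marker *Pi16* was 2.47, 2.69, and 2.21. *Itga8* and *Pi16* were the closest of 527 profiles to *Thsd4* and *Mfap4*, so like ratios follow from that choice. *Emilin2* over *Cd68* was 0.423 in Saline, 0.246 in AngII No AAA, and 0.214 in AngII AAA. The ratios were chosen after the values were seen, and each rests on 1 library per cohort.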
